A study of Rattus norvegicus with 6 samples.

Results

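Chloride channels, chloride exchangers and cation-chloride cotransporters were examined in the RNA-seq profiles of bone marrow mesenchymal stem cells (BMSCs) of the rat, with and without ginsenoside Rb1. The genes were chosen by symbol, with the Rb1 and DMSO values of these libraries already known from an earlier look at the data. They are the CLC genes (Clcn), the chloride intracellular channel genes (Clic), the anoctamins (Ano), the tweety homologs (Ttyh), the LRRC8 subunits (Lrrc8a to Lrrc8e), the bestrophins (Best), Cftr and the Slc12a cotransporters. The symbols matched 47 of the 22062 rows of the deposited table. Of these 47 genes, 24 had an FPKM (fragments scaled for transcript length in kilobases and for the mapped fragments of the library) of at least 1 in at least 3 of the 6 libraries and entered the fit over all genes. The other 23 did not pass this filter and are described by their fragments.

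There were 2 groups of 3 libraries. One group received Rb1, a ginsenoside (a saponin from ginseng root), at 20 µM over 24 h according to the methods, and the labels give DMSO, a solvent, for the other. The BMSCs came from 4-week-old Sprague-Dawley rats and were used at passages 2 to 3. The labels call the animals female, whereas the methods call them male. No source says that the 3 libraries within a group stem from different cultures or animals, so that the errors and p-values cover the spread among libraries only, which may be technical. The cells were kept from flushed marrow by their adherence to plastic, and in bulk RNA from them, fewer cells of a type and less RNA per cell cannot be told apart.

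Chloride is the main anion that crosses cell membranes, and its movement, followed by water, sets cell volume. LRRC8 proteins assemble into the volume-regulated anion channel, which opens when a cell swells and lets chloride and organic osmolytes out, while the KCC cotransporters of the Slc12a family carry potassium and chloride out together and the NKCC cotransporters carry them in with sodium. Inside the cell, most CLC proteins exchange chloride for protons in the membranes of endosomes and lysosomes, where they work beside the vesicle proton pump. In bone, CLC-7 and its subunit Ostm1 are known from the osteoclast, whose resorption of mineral needs both.

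Total fragments ranged from 8197154 to 14177065 in the libraries of the Rb1 group and from 10162604 to 12337331 in those of the DMSO group. Rb1 replicate 1 was the shallowest library and stood apart. It correlated with the remaining Rb1 libraries at 0.972 on average, whereas the average within the group was 0.980 to 0.984 for each of the other 5 libraries. It held the lowest FPKM of all 6 libraries for 15 of the 24 chloride genes (62.5%), whereas this library was the lowest for 33.8% of the 10781 genes tested. Differences that turned sign or moved by over 1.5 times without this library are therefore given both ways. Mitochondrial genes took 18.1% to 24.8% of the summed FPKM in the Rb1 libraries and 10.2% to 18.5% in the DMSO libraries. Their part in the differences was not tested.

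As a group, the chloride genes were lower by value in more cases than they were higher. Of the 24 genes, 19 had a log2 difference (Rb1 minus DMSO, on log2(FPKM + 1)) below 0 and 5 above 0, which is 79.2% below 0 beside 59% of all genes tested. The median log2 difference was −0.25, against −0.07 over all genes tested. It was −0.14 without Rb1 replicate 1 and −0.12 with library weights, a fit that gives less weight to libraries far from their group. None of the 24 passed the test over all genes (adjusted p-values from 0.117 to 0.915, limma with Benjamini-Hochberg adjustment), and 0.0186% of all genes did. At an unadjusted p under 0.05 from the same limma fit, 6 chloride genes were lower (25.0%, beside 14.6% of all genes) and 2 were higher (8.33%, beside 8.27%). The Rb1 and DMSO libraries did not overlap for 7 genes that were lower (29.2%, beside 20.3%) and 2 that were higher (8.33%, beside 11.9%). Without Rb1 replicate 3, 11 of the 23 chloride genes in the fit were lower at the unadjusted threshold, beside 1605 of all 10676 genes. Without Rb1 replicate 1, 2 of 24 were higher and 5 lower, beside 921 and 1635 of all 10678 genes. With library weights, 800 of the 10781 genes tested and 3 of the 24 chloride genes (Best1, Slc12a9 and Clic5) passed the adjusted one. Since the genes were chosen with these values known, the counts describe the libraries and support nothing further.

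**Figure D1:**
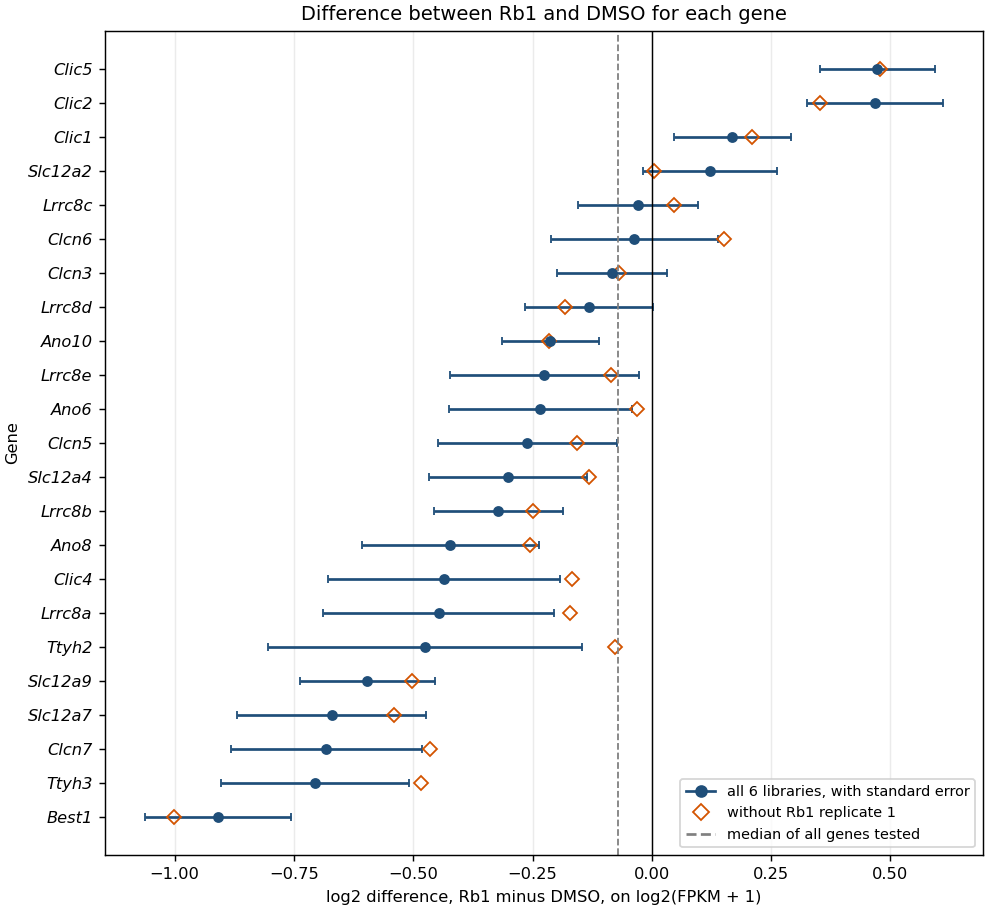
Log2 difference between Rb1 and DMSO on log2(FPKM + 1) for 23 of the 24 genes that passed the filter (x axis), with 1 gene per row. Filled circles are the fit to all 6 libraries with bars for 1 standard error, open diamonds leave out Rb1 replicate 1, and the dashed line is the median of all genes tested. Of the circles, 19 lie left of 0 and 4 lie right of it, and the open diamonds of Clcn6 and Lrrc8c lie right of 0 while their circles lie left of it.

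The scale of the libraries bore on the split. At the unadjusted threshold, limma gave 892 higher and 1575 lower genes in the whole table. With quantile normalization they were 1279 and 1158, and with scaling by the median ratio 1246 and 1113. Of the chloride genes, 8 were then above 0 and 16 below 0 with quantile normalization, and 7 and 17 with median scaling. Clcn6 and Lrrc8c were the genes that turned to above 0 with both, and Clcn3 with quantile normalization alone, so that no direction is given for these 3 genes.

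The levels of the 24 genes differed widely. Clic1 stood first with 311.5 ± 29.6 FPKM (SD, n = 6), followed by Clic2 with 43.4 ± 9.48, Ttyh3 with 37.4 ± 10.9, Clic4 with 35.7 ± 9.01 and Ano10 with 33.2 ± 2.87. These means and SDs pool both groups, so the SDs include the difference between the groups. Apart from the step below Clic1, these neighbours in the order lay within their SDs of each other. The order below Clic1 differed by group. With DMSO it was Ttyh3 (mean 46.2 FPKM), Clic4 (40.8), Clic2 (36.1) and Ano10 (35.7). With Rb1 it was Clic2 (50.6), Clic4 (30.7), Ano10 (30.6) and Ttyh3 (28.5). The lowest of the genes that passed the filter were Slc12a2 with 1.35 ± 0.28, Clcn3 with 1.21 ± 0.15 and Clcn5 with 1.01 ± 0.38 FPKM (SD, n = 6). Summed over all 47 genes, the level was 580.0 ± 47.3 FPKM with Rb1 and 597.6 ± 33.1 FPKM with DMSO (SD, n = 3), a difference smaller than the SD of either group. The Clic genes made up 71.2% of this sum with Rb1 and 62.2% with DMSO.

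**Figure D2:**
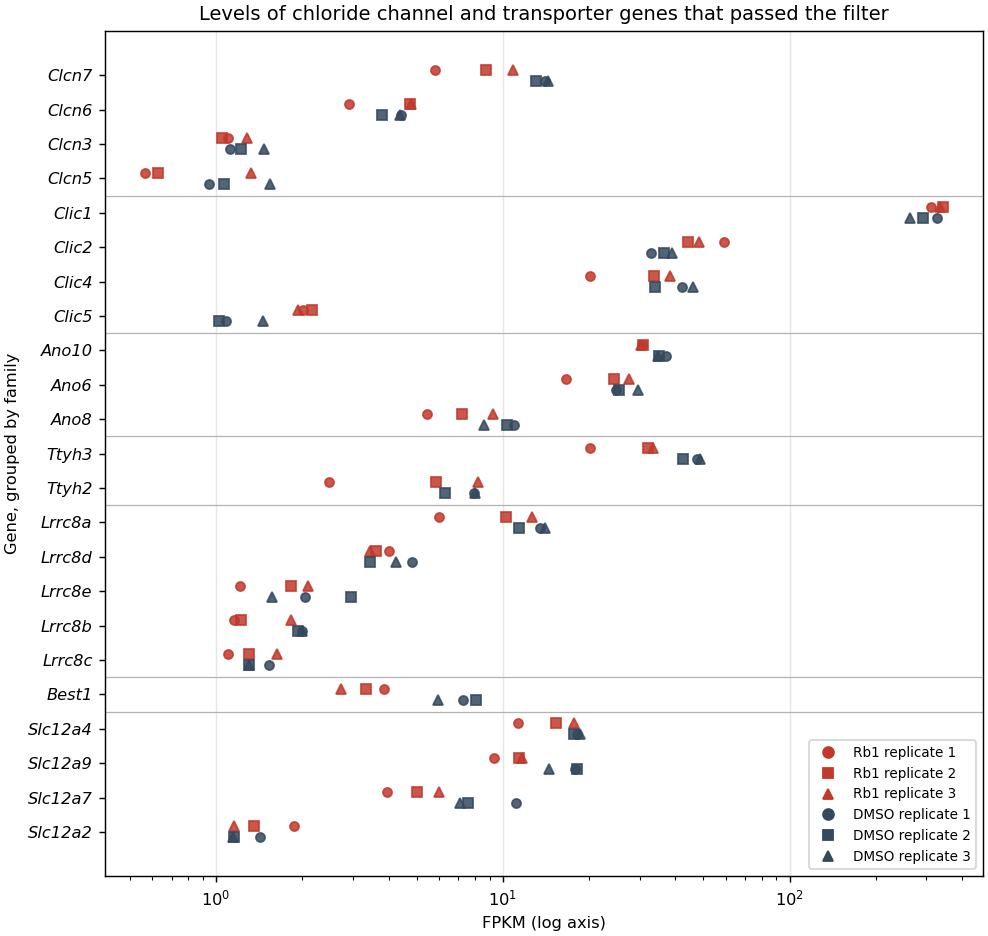
FPKM of 23 of the 24 genes that passed the filter (x axis, log scale), grouped by family from the CLC genes at the top to the Slc12a genes at the bottom. Red points are Rb1 and blue points DMSO libraries, with a circle, square or triangle for replicate 1, 2 or 3. Clic1 lies near 300 FPKM in every library, and Rb1 replicate 1 (red circle) is the leftmost point for 15 genes.

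Of the 9 CLC genes, 4 passed the filter, and all 4 encode chloride-proton exchangers of endosomes and lysosomes. Their family sum was 15.7 ± 4.08 FPKM with Rb1 and 21.7 ± 1.58 FPKM with DMSO (SD, n = 3). Most of it came from Clcn7 (ENSRNOG00000016976, chromosome 10, bases 14492843 to 14516894 of the plus strand in the deposited table, whose rat build is not given), which encodes the exchanger of lysosomes and of the osteoclast's resorbing membrane. Clcn7 was at 5.82, 8.71 and 10.9 FPKM in Rb1 replicates 1 to 3 and at 14.1, 13.0 and 14.4 FPKM in DMSO replicates 1 to 3. All Rb1 libraries lay below all DMSO libraries. The log2 difference was −0.68 (standard error 0.20), −0.46 without Rb1 replicate 1 and −0.43 with library weights. Ostm1, the beta subunit that CLC-7 needs for its stability, was at 12.5, 13.4 and 12.8 FPKM with Rb1 and at 16.6, 14.9 and 14.4 FPKM with DMSO. Its groups did not overlap either, with a log2 difference of −0.23 (standard error 0.11).

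Clcn6 encodes an exchanger of late endosomes, best known from neurons. It was at 2.90, 4.73 and 4.79 FPKM with Rb1 and at 4.43, 3.79 and 4.38 FPKM with DMSO, and the groups overlapped. Its log2 difference of −0.04 turned to 0.15 without Rb1 replicate 1. Clcn3, which encodes an exchanger of endosomes and synaptic vesicles, ranged from 1.05 to 1.28 FPKM with Rb1 and from 1.12 to 1.47 FPKM with DMSO. Clcn5 encodes the exchanger of early endosomes that is mutated in Dent disease, a disorder of the kidney tubule. It ranged from 0.565 to 1.32 FPKM with Rb1 and from 0.941 to 1.54 FPKM with DMSO, with a log2 difference of −0.26 that was −0.16 without Rb1 replicate 1. This value ran from −0.51 with a pseudocount of 0.1 to −0.04 with library weights.

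The 300 bases around the annotated start of Clcn7 hold the letters CACGTG, the palindromic E-box that factors such as TFEB, a regulator of lysosomal genes, can bind. The window is shown because Clcn7, Slc12a7 and Slc12a9, which were among the genes with lower values in all Rb1 libraries, share these letters there. Ttyh3, Ano10 and Lrrc8b, also lower in all Rb1 libraries, have windows without these letters. Best1, lower in all Rb1 libraries as well, was not among the genes found with the letters. Whether Best1 has a window is not given here. Ano6 and Clcn6, whose groups overlapped, have them. A link between the letters and the differences was not tested. The Clcn7 window runs from 250 bases before to 50 bases after the start in RefSeq's GRCr8 build (chr10:14656011-14656310, plus strand). The E-box is in capitals, with its first base at −34 from the start.
Clcn7: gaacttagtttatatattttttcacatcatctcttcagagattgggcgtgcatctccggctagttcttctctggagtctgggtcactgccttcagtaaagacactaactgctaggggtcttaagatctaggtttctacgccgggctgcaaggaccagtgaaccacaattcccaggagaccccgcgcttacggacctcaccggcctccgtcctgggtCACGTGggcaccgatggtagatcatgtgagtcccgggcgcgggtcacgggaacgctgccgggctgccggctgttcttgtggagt

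The corresponding stretches of the other genes that passed the filter are given with 10 bases on each side, 5′ to 3′ on the strand of the gene and with the E-box in capitals. They let its neighbours be compared.
Slc12a9: accccagacgCACGTGgaagagtttg
Slc12a7: caggtgaggtCACGTGgcgggcgggg
Ano6: gagaggtgcgCACGTGtgtcgtttcc
Clcn6, upstream: tcgagagggcCACGTGaccctcccgg
Clcn6, downstream: cggggccagtCACGTGaggcgcagat
The first base of the E-box was at −165 in Slc12a9, at −58 in Slc12a7, at −235 in Ano6 and at −64 and −41 in Clcn6. Of the 39 chloride genes with a window in the RefSeq table, 7 held the motif in at least 1 window (17.9%), beside 6.42% of all 33469 windows. The first share counts genes and the second counts windows, here and for the letters below, so they are not like for like. No share over all genes that passed the filter was taken. Among the 21 that also passed the filter, 5 held it (23.8%), and these 5 had log2 differences from −0.68 for Clcn7 to −0.04 for Clcn6. The GC box GGGCGG, searched on both strands, was in a window of 61.5% of the chloride genes and in 33.1% of all windows. Within the Slc12a7 stretch shown lay 1 GC box. TATAAA was in 7.69% and 14.2%, CCAAT in 35.9% and 37.5%, and TGGAAA, the core letters of the site of the osmotic stress factor NFAT5, in 7.69% and 22.7%, all on both strands. A match is a description of the letters in the window, not of a bound site.

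The chloride intracellular channel genes were the family with the highest level and the only one of the 7 families with a gene in the fit whose summed FPKM was higher by value with Rb1, at 412.8 ± 17.7 FPKM against 371.9 ± 27.2 FPKM with DMSO (SD, n = 3). CLIC proteins exist both as soluble proteins with a glutathione transferase fold and inserted in membranes. Of the 6 genes, 4 passed the filter. Clic1, which encodes the most widely expressed member, was at 311, 342 and 335 FPKM with Rb1 and at 326, 291 and 264 FPKM with DMSO. The groups overlapped, with a log2 difference of 0.17 (standard error 0.12). Clic1 overlaps Ddah2 on the same strand, a gene with a mean level of 112 FPKM, so that the assignment of shared fragments is uncertain.

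Clic2 encodes a CLIC protein that binds ryanodine receptors. It was at 59.1, 44.2 and 48.4 FPKM with Rb1 and at 33.0, 36.6 and 38.8 FPKM with DMSO. All Rb1 libraries lay above all DMSO libraries, and the log2 difference was 0.47 (standard error 0.14), or 0.35 without Rb1 replicate 1. Clic5, whose protein links the membrane to the actin cytoskeleton in stereocilia and podocytes, was at 2.0, 2.15 and 1.93 FPKM with Rb1 and at 1.08, 1.03 and 1.46 FPKM with DMSO. The groups again did not overlap, and the log2 difference was 0.47 (standard error 0.12), 0.48 without Rb1 replicate 1 and 0.74 at most over the alternatives. Clic2 and Clic5 were the only chloride genes with Rb1 libraries wholly above the DMSO libraries. They differed in depth behind these values, with 396 to 813 fragments per library for Clic2 and 31 to 80 for Clic5.

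Clic4 encodes a CLIC protein of actin-rich membranes that has been tied to tube formation by endothelial cells. It was at 20.1, 33.7 and 38.2 FPKM with Rb1 and at 42.3, 33.9 and 46.0 FPKM with DMSO. Rb1 replicate 1 was far below the rest, and the log2 difference of −0.44 was −0.17 without it. Clic4 took 7.38 ± 2.01% of the Clic sum with Rb1 and 11.0 ± 1.95% with DMSO (SD, n = 3).

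**Figure D3:**
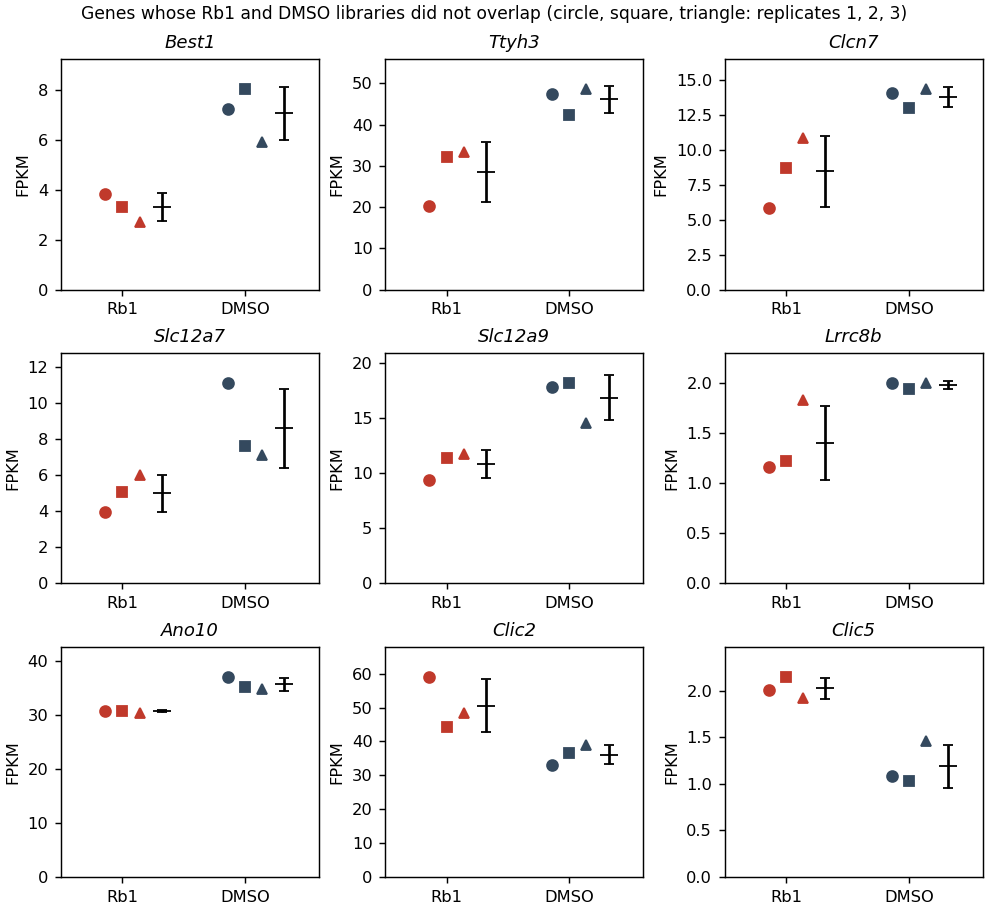
FPKM (y axis, from 0) in each library of the 9 genes whose Rb1 and DMSO libraries did not overlap, with Rb1 in red and DMSO in blue and with a circle, square or triangle for replicate 1, 2 or 3. Black bars are the mean ± SD of 3 libraries. In 7 genes all Rb1 points lie below all DMSO points, and in Clic2 and Clic5 they lie above.

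Of the 10 anoctamins, 3 passed the filter, with a family sum of 60.8 ± 7.29 FPKM with Rb1 and 72.3 ± 1.20 FPKM with DMSO (SD, n = 3). This family holds both calcium-activated chloride channels and scramblases, which move phospholipids between the leaflets of a membrane. Ano10, whose loss causes a cerebellar ataxia in humans, was at 30.7, 30.8 and 30.4 FPKM with Rb1 and at 37.1, 35.1 and 34.8 FPKM with DMSO. The Rb1 libraries lay close together (30.6 ± 0.20 FPKM, SD, n = 3), and the groups did not overlap. The log2 difference of −0.21 (standard error 0.10) was not past the unadjusted threshold in the limma fit over all genes. Ano6 encodes a calcium-activated scramblase that also conducts ions and has been linked to mineral deposition by osteoblasts in mice. It was at 16.7, 24.4 and 27.5 FPKM with Rb1 and at 24.8, 25.4 and 29.5 FPKM with DMSO. Its log2 difference of −0.23 was −0.03 without Rb1 replicate 1. Ano8, which encodes a protein that tethers the endoplasmic reticulum to the plasma membrane, was at 5.46, 7.18 and 9.22 FPKM with Rb1 and at 10.9, 10.3 and 8.62 FPKM with DMSO. The groups overlapped by 1 library on each side, and the log2 difference was −0.42, or −0.25 without Rb1 replicate 1.

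The tweety homologs encode membrane proteins first described as chloride channels, a role that later structures have put in doubt. Of the 3 genes, 2 passed the filter, with a family sum of 34.1 ± 9.92 FPKM with Rb1 and 53.6 ± 4.28 FPKM with DMSO (SD, n = 3). Ttyh3 was at 20.2, 32.1 and 33.3 FPKM with Rb1 and at 47.5, 42.4 and 48.6 FPKM with DMSO. No Rb1 library reached a DMSO library, and the log2 difference was −0.71 (standard error 0.20), or −0.48 without Rb1 replicate 1. Ttyh2 was at 2.48, 5.86 and 8.19 FPKM with Rb1 and at 7.96, 6.29 and 8.02 FPKM with DMSO. Here the groups overlapped, and Rb1 replicate 1 set most of the log2 difference, which was −0.48 with it and −0.08 without it.

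All 5 LRRC8 subunits passed the filter, with a sum of 17.7 ± 4.09 FPKM with Rb1 and 22.7 ± 1.48 FPKM with DMSO (SD, n = 3). Lrrc8a (chromosome 3) encodes the obligatory subunit of the volume-regulated anion channel, without which the others do not form a working channel in the plasma membrane. It was at 5.97, 10.3 and 12.6 FPKM with Rb1 and at 13.5, 11.4 and 14.1 FPKM with DMSO. The groups overlapped, and the log2 difference of −0.45 (standard error 0.24) was −0.17 without Rb1 replicate 1. The partner subunits decide what the channel lets through. Lrrc8d, whose subunit favours uncharged osmolytes such as taurine and drugs such as cisplatin, was at 4.01, 3.61 and 3.45 FPKM with Rb1 and at 4.81, 3.45 and 4.23 FPKM with DMSO. Its log2 difference was −0.13 (standard error 0.13), and between −0.23 and −0.03 over the alternatives.

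Lrrc8b, Lrrc8c and Lrrc8d lie side by side on the minus strand of chromosome 14. Lrrc8b, whose subunit has been described in the endoplasmic reticulum, was at 1.15, 1.22 and 1.82 FPKM with Rb1 and at 2.0, 1.94 and 2.0 FPKM with DMSO. It was the only LRRC8 gene whose groups did not overlap, with 26 to 70 fragments per library behind the values. Its log2 difference of −0.32 (standard error 0.13) became −0.25 without Rb1 replicate 1 and lay between −0.50 and −0.18 over the alternatives. Lrrc8c, of the subunit first found in adipocyte differentiation, ranged from 1.10 to 1.63 FPKM with Rb1 and from 1.30 to 1.53 FPKM with DMSO. Its log2 difference of −0.03 turned to 0.05 without Rb1 replicate 1. Lrrc8e, of a subunit that carries cyclic dinucleotides well, ranged from 1.21 to 2.10 FPKM with Rb1 and from 1.57 to 2.95 FPKM with DMSO, and its log2 difference of −0.23 was −0.09 without that library.

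Within the LRRC8 sum, Lrrc8a took 53.0 ± 7.53% with Rb1 and 57.1 ± 3.35% with DMSO (SD, n = 3). Lrrc8d followed with 21.9 ± 7.17% and 18.3 ± 1.87%, which included 29.9% in Rb1 replicate 1 against 16% to 20.1% in the other libraries. The share of Lrrc8c was 7.61 ± 0.52% with Rb1 and 6.08 ± 0.41% with DMSO, and all 3 Rb1 libraries (7.13% to 8.16%) lay above all 3 DMSO libraries (5.63% to 6.41%). The FPKM of Lrrc8c itself overlapped between the groups. Shares without overlap also occurred in other families, as for Slc12a2 in the Slc12a sum (2.83% to 6.25% with Rb1, 2.44% to 2.73% with DMSO). Lrrc8b and Lrrc8e took less than 10% each on average in both groups. Lrrc8a thus remained the leading subunit in all 6 libraries.

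**Figure D4:**
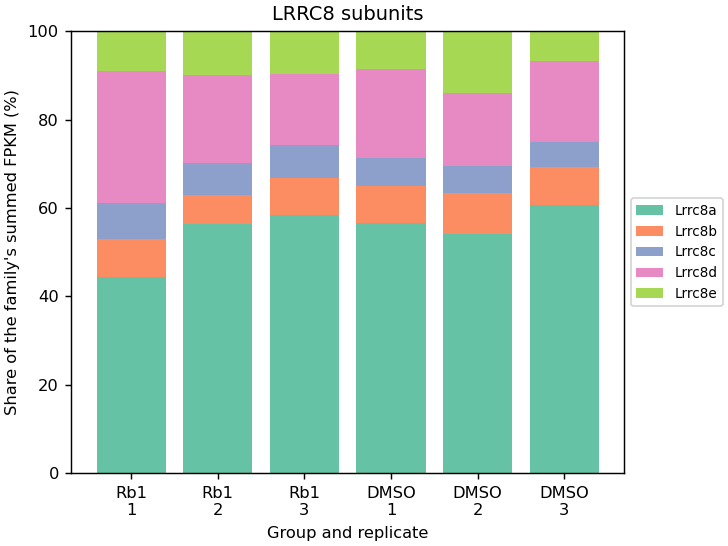
Share of each gene in the summed FPKM of its family (y axis, percent) for the LRRC8 subunits, with 1 stacked bar per library. Lrrc8a is the tallest part of every bar, from 44.4% in Rb1 replicate 1 to 60.7% in DMSO replicate 3.

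Best1 was the only bestrophin in the fit and had the log2 difference farthest from 0 of the 24 genes, except that Clcn7 (−0.86) and Ttyh3 (−0.83) were farther than Best1 (−0.81) without Rb1 replicate 3. Bestrophin 1 is a calcium-activated chloride channel best known from the retinal pigment epithelium. Best1 (ENSRNOG00000020346, chromosome 1, bases 226030874 to 226049929 of the minus strand) was at 3.84, 3.32 and 2.72 FPKM with Rb1 and at 7.24, 8.03 and 5.93 FPKM with DMSO. The mean was 3.29 ± 0.56 FPKM with Rb1 and 7.07 ± 1.06 FPKM with DMSO (SD, n = 3), and no library of the groups overlapped. The log2 difference was −0.91 (standard error 0.15), and −1.0 without Rb1 replicate 1. Best1 overlaps Fth1, which encodes the heavy chain of the iron store ferritin, on the opposite strand. Fth1 was at 4355, 2529 and 2736 FPKM with Rb1 and at 4871, 5048 and 4168 FPKM with DMSO. The library kit kept the strand, but no source used here says whether the counting used it. The part of Fth1 reads in the Best1 values was not tested.

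Of the 9 Slc12a genes, 5 passed the filter, with a sum of 35.6 ± 5.40 FPKM with Rb1 and 48.3 ± 3.58 FPKM with DMSO (SD, n = 3). Slc12a4 and Slc12a7 encode potassium-chloride cotransporters (KCCs), which carry chloride out of the cell. Slc12a4 encodes KCC1, which is found in most cells, and was at 11.3, 15.3 and 17.8 FPKM with Rb1 and at 18.2, 17.7 and 18.6 FPKM with DMSO. The groups overlapped by a small margin, and the log2 difference of −0.30 was −0.13 without Rb1 replicate 1. Slc12a7 encodes KCC4, known from kidney and inner ear, and was at 3.94, 5.03 and 5.98 FPKM with Rb1 and at 11.1, 7.58 and 7.08 FPKM with DMSO. All Rb1 libraries were below all DMSO libraries, with a log2 difference of −0.67 (standard error 0.20), or −0.54 without Rb1 replicate 1.

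Slc12a9 encodes a protein of the same family, also called CIP1, that was first described as interacting with other cotransporters. It was at 9.32, 11.4 and 11.7 FPKM with Rb1 and at 17.8, 18.2 and 14.5 FPKM with DMSO. The groups did not overlap, and the log2 difference was −0.60 (standard error 0.14), or −0.50 without Rb1 replicate 1. Slc12a2 encodes NKCC1, the sodium-potassium-chloride cotransporter that loads cells with chloride, and ranged from 1.15 to 1.87 FPKM with Rb1 and from 1.15 to 1.43 FPKM with DMSO. Its log2 difference was 0.12 (standard error 0.14), and 0.01 without Rb1 replicate 1, its highest library. As shares of the Slc12a sum, Slc12a4 took 41.2 ± 3.09% with Rb1 and 37.7 ± 3.18% with DMSO, Slc12a9 30.4 ± 1.45% and 34.8 ± 3.11%, and Slc12a7 13.9 ± 0.78% and 17.6 ± 3.15% (SD, n = 3). Slc12a4, Slc12a7 and Slc12a9 each exceeded Slc12a2 in every library.

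Of the 23 genes that did not pass the filter, 16 held at least 1 fragment in some library and 7 were listed at 0 in all 6 (Clcn2, Ano2, Ano5, Ano9, Best2, Best3 and Best4). A value of 0 need not mean an absent transcript here, since Polr2h, a subunit of the RNA polymerases that every cell uses and a neighbour of Clcn2, was also listed at 0 in every library. Clcn4, of the endosomal exchanger CLC-4, held 20, 15 and 14 fragments with Rb1 and 12, 9 and 25 with DMSO. A further 14 genes held at most 1 to 8 fragments in any library. Among them were Cftr, the cyclic AMP-gated chloride channel of epithelia, with 1 fragment in each of 2 libraries, Ano1, the calcium-activated chloride channel of secretory epithelia, with 1 fragment in each of 3 libraries, and Slc12a1 and Slc12a3, the salt transporters of the kidney tubule, with at most 2 and 4 fragments. No difference between the groups was readable for these genes at this depth.

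Genes that work with the chloride channels were read from lists drawn up with earlier results of these data known. Of 8 subunits and related channel genes, 4 were in the fit, 3 of them above 0 and 1 below 0, with a median log2 difference of 0.03 and none past an unadjusted p of 0.05 from limma. Without Rb1 replicate 1, 1 was above and 3 were below 0, with a median of −0.14. Besides Ostm1, these were Clns1a, a chaperone once taken for a swelling-activated channel (log2 difference 0.02, or −0.23 without that library), Clcc1, a chloride channel of the endoplasmic reticulum (0.06, or −0.07), and Tmem206, the proton-activated chloride channel (0.04). Bsnd, which encodes the barttin subunit of kidney CLC channels, and Hepacam, whose protein binds CLC-2 in glia, were listed at 0. In the WNK-SPAK pathway, whose kinases switch NKCC1 on and the KCCs off, 8 of 12 genes were in the fit, 6 above 0 and 2 below 0 (4 and 4 without Rb1 replicate 1), with a median of 0.02. Cab39, an activator of SPAK, was at 65.4, 60.4 and 66.6 FPKM with Rb1 and at 44.4, 43.5 and 52.0 FPKM with DMSO, and was the 1 gene of this list past the unadjusted threshold, which is 12.5% beside 8.27% of all genes. Its log2 difference was 0.45 (standard error 0.12). The kinase genes Stk39 (SPAK), Oxsr1 and Wnk1 had log2 differences of 0.01, 0.04 and −0.21. For Cul3, which marks WNK kinases for degradation, it was 0.31. Without Rb1 replicate 1, Stk39 was at 0.16 and Cul3 at 0.16.

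All 7 of the 18 other anion transporter genes in the fit were below 0 (beside 59% of all genes), with a median log2 difference of −0.50. Past the unadjusted threshold from limma were 4 of them (57.1%, beside 14.6%), and 3 without Rb1 replicate 1. Slc4a2, the chloride-bicarbonate exchanger AE2 that osteoclasts also use, was at 8.75, 11.3 and 12.1 FPKM with Rb1 and at 17.6, 18.7 and 15.9 FPKM with DMSO (log2 difference −0.66, standard error 0.15). Slc4a3, of the related exchanger AE3, had a log2 difference of −0.58 and Slc26a11, of a sulphate transporter, one of −0.50. Rb1 replicate 1 was the lowest library for 6 of these 7 genes. Of 24 ligand-gated chloride channel genes (GABA-A and glycine receptors), only Gabre and Gabrr2 were in the fit, with log2 differences of −0.27 and −0.03. Without Rb1 replicate 1 they were −0.35 and −0.14, and 1 of them was past the unadjusted threshold.

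Of 21 genes of osmolytes and cell volume, 15 were in the fit, 7 above 0 and 8 below 0, with a median log2 difference of −0.06. Past the unadjusted threshold from limma, 1 was higher (6.67%, beside 8.27% of all genes) and 2 were lower (13.3%, beside 14.6%). Without Rb1 replicate 1, 2 were higher. Piezo1, a stretch-activated cation channel, was at 12.1, 16.2 and 18.7 FPKM with Rb1 and at 28.5, 26.0 and 26.9 FPKM with DMSO (log2 difference −0.77, standard error 0.16). Sgk1, a kinase induced by cell shrinkage, had a log2 difference of 0.27. Of 18 genes of the vesicle proton pump, 16 were in the fit, 9 above 0 and 7 below 0, with a median of 0.02. At the same threshold 2 were higher (12.5%, beside 8.27%) and 3 lower (18.8%, beside 14.6%). Without Rb1 replicate 1, 5 were above and 11 below 0, with a median of −0.11 and 2 lower. Atp6v1g1 (0.44) and Atp6v1d (0.47), which encode subunits of its stalks, were among the former and Atp6v0b (−0.30), of its membrane ring, among the latter. None of the genes in these 6 lists passed the test over all genes (smallest adjusted p = 0.117 from limma).

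Markers of other cells were read beside those of stroma. Of 10 stromal markers in the fit, 1 was higher (10%, beside 8.27% of all genes) and 4 lower (40.0%, beside 14.6%) past the unadjusted limma threshold, with 6 lower without Rb1 replicate 1. Their summed FPKM ranged from 3511 to 5495 with Rb1 and from 5832 to 6595 with DMSO, with Rb1 replicate 1 the lowest. Most of this sum, and of its gap between the groups, was Col1a1. It ranged from 1976 to 3829 FPKM with Rb1 and from 4218 to 4953 FPKM with DMSO. Of the 11 macrophage markers in the fit, 1 was higher and 1 lower (9.09% each, beside 8.27% and 14.6% of all genes), with none higher without Rb1 replicate 1. The list summed to 4088 to 4473 FPKM with Rb1 and 3700 to 3735 FPKM with DMSO. Most of this was Lyz2, at a mean of 3466 FPKM with Rb1 and 2867 FPKM with DMSO, while Cd68 was at 236 and 286 FPKM. The higher sum with Rb1 rested on Lyz2 and does not describe the list. Of the 11 macrophage markers, 3 had a log2 difference above 0 and 8 below 0 (2 and 9 without Rb1 replicate 1). The groups did not overlap for Lyz2, which was higher (9.09%, beside 11.9% of all genes). They did not overlap either for C1qa (−0.31) and Csf1r (−0.27), which were lower (18.2%, beside 20.3%). The osteoclast list had 5 of 9 genes in the fit, none past the threshold (2 lower without Rb1 replicate 1). Its sum was 281 to 367 FPKM with Rb1 and 314 to 351 FPKM with DMSO, nearly all of it Ctsk. Acp5 was at a mean of 6.64 FPKM with Rb1 and 7.67 FPKM with DMSO, and Atp6v0d2 at 6.21 and 6.01 FPKM. Mmp9 (1.65 and 2.04 FPKM) and Nfatc1 (2.51 and 3.42 FPKM) were also in the fit. Ocstamp and Oscar were not, and Calcr and Dcstamp were listed at 0. Of 8 endothelial markers, 3 were in the fit and all 3 were lower (beside 14.6% of all genes). The list summed to 21.3 to 23.3 FPKM with Rb1 and 32.2 to 49.6 FPKM with DMSO, most of it Egfl7 (mean 16.2 and 29.3 FPKM). Cdh5, Emcn, Tek and Kdr were under 1 FPKM in every library, so the presence of endothelial cells is not shown. Of 4 epithelial markers in the fit 3 were higher (75.0%, beside 8.27%), with sums of 7.25 to 12.7 FPKM with Rb1 and 5.41 to 5.72 FPKM with DMSO. Without Rb1 replicate 1, 2 of the 4 were in the fit and 1 was higher. Epcam and Krt18 reached 1 FPKM in no DMSO library and passed the filter through Rb1 libraries alone, which fixed their direction. Krt19 reached it with DMSO in replicate 3 only (1.08 FPKM). The share of 75.0% is therefore no result about epithelial cells. Of the muscle markers 2 were in the fit, neither past the threshold (10.6 to 14.2 FPKM and 10.1 to 14.8 FPKM in sum), and of the neuron and glia markers none, with Rbfox3, Snap25 and Olig2 listed at 0. The part of these cells in the differences between the chloride genes was not tested.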

How the data were processed

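The authors deposited FPKM values for 22062 rows of genes in 6 RNA-seq libraries. They also deposited, in columns headed as counts, a signal that is each library's fragments multiplied by 1 factor. Divided by this factor, 99.2% to 99.4% of the values were whole within 0.05, and the sums gave the total fragments. Per the labels' processing notes, CASAVA 1.8 and HISAT2 were used with hg19, a human build that does not match the rat identifiers. The counting program is not named in any source used here. No column of the table was left out (0 columns of samples not used).

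Rows that carried the same symbol (233 symbols) were added up in FPKM. The filter asked for 1 FPKM or more in 3 or more libraries. Log2(FPKM + 1) was fitted with limma 3.58.1 (R 4.3.3), with group as the sole term, and Benjamini-Hochberg adjustment ran over the 10781 genes tested. On this scale, differences of genes near or under 1 FPKM are understated. The script was tested on simulated data. Promoter windows and gene names came from RefSeq tables of GRCr8, and no genome was used.

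The chloride genes and all lists were chosen with earlier results of these data known, so no test was run over the list and no set test was made. The values of each gene that passed the filter were given per library, or as a range where the mean was under 2 FPKM and the unadjusted p at least 0.05. Of each further list, up to 3 genes with the smallest unadjusted p and the direct partners of the channels were named, and Polr2h, Fth1 and the single cell markers were added after their values were seen. The values of a few single genes are not reported here, while counts, sums and medians include them. Alternatives covered the pseudocount, filter, scaling, replicate block, library weights, variance model, summing of rows and leaving out each library. Voom was added after seeing the data.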

Additional observations from a re-analysis of the deposited data

How the results depend on the processing

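The number of chloride genes higher at an unadjusted p under 0.05 from limma was 2 under every alternative, and the number that were lower was 5 to 7, except without Rb1 replicate 3. Over all genes, these alternatives gave 524 to 1279 higher and 936 to 1940 lower genes. Leaving out each library in turn gave 5 to 11 lower chloride genes, with 11 when Rb1 replicate 3, the Rb1 library with the most fragments, was left out. Over all genes, it gave 936 to 1635 lower genes, with 1605 of 10676 without Rb1 replicate 3. The median log2 difference of the chloride genes was −0.051 with no filter, where 40 of them entered, −0.38 without Rb1 replicate 3 and −0.14 without Rb1 replicate 1, the range when a library was left out. Over all genes tested, 2 passed an adjusted p of 0.05 from limma. This number was 0 with the replicate block, 0 with voom, and 0 to 4 when each library was left out. With library weights, which gave Rb1 replicate 1 a weight of 0.218, 800 of the 10781 genes tested passed. Among them were 3 of the 24 chloride genes (Best1, Slc12a9 and Clic5, adjusted p = 0.0311, 0.0416 and 0.0427 from limma). The cause was not tested.

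No source says whether same-numbered libraries belong together, and correlations with 3 libraries per group cannot settle it. The deviations of same-numbered libraries correlated at −0.004, −0.042 and 0.16, and not every library correlated best with its own number. With the replicate block, 2 of 24 chloride genes were higher and 5 lower at the unadjusted threshold, beside 742 and 1340 of all 10781 genes. A planned count test on recovered fragments was not run, because a few deposited values were not whole. Genes with under 100 fragments per library, such as Lrrc8b, Lrrc8e, Clic5, Clcn3 and Clcn5, are those where counting error weighs most.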
